A study of Mus musculus with 9 samples.

Results

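Kinesins, cytoplasmic dynein and dynactin are the microtubule motors that carry cargo along axons. Their subunits were followed here in spinal motor neurons, in neurons carrying mutant SOD1 and in whole spinal cord. A member was any probe set, the group of short oligonucleotides that reads a transcript on the array, which the platform annotation assigns to a single gene named as a kinesin (Kif), kinesin light chain (Klc), dynein chain (Dync or Dynl) or dynactin subunit (Dctn). There were 59 such genes of 18193 on the array, read by 141 probe sets. The kinesin set held 40 genes and 105 probe sets, and the dynein-dynactin set held 19 genes and 36 probe sets. The other 4 probe sets that named a member named several genes at once, 3 of them in the Dynlt1 cluster and 1 at Kif27, and were left out.

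The samples were 9 Affymetrix Mouse 430 2.0 arrays, 3 in each of 3 groups. The first group was whole spinal cord of wild-type mice, the second was motor neurons taken from wild-type mice by laser capture, and the third was motor neurons taken in the same way from SOD1 mutant mice. No age, treatment, SOD1 allele or rule for recognising the neurons is stated, the meaning of D28 in the titles is not stated, and the source field names ventral cord for all arrays although the cord arrays are described as whole cord. Each array is described as coming from a mouse, in the singular. Whether the arrays of a group came from different mice is not stated. The p-values thus cover only array-to-array spread within a group, and that may be technical.

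Most kinesins are motors that walk toward the plus ends of microtubules, which point away from the cell body in an axon, while cytoplasmic dynein walks toward the minus ends and brings endosomes, lysosomes and trophic signals back. Kinesin-1 is built of a Kif5 heavy chain pair with light chains (Klc) that bind cargo. Dynein 1 needs dynactin and an adaptor to move over long distances. Motor neurons have some of the longest axons in the body, and mutations in KIF5A, DCTN1 and DYNC1H1 are known from inherited diseases of motor neurons.

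The promoters of 4 members are shown because these genes gave the largest rise (Kif5c) and the largest falls (Klc1 and Kif1a) among kinesins between motor neurons and cord, and the largest rise in dynactin (Dctn3). Each is 300 bases long, 250 before the annotated start and 50 after it, from RefSeq on build GRCm38.p6, and capitals mark a GC box (GGGCGG) or a cyclic AMP response element (TGACGTCA) found on either strand.
Kif5c: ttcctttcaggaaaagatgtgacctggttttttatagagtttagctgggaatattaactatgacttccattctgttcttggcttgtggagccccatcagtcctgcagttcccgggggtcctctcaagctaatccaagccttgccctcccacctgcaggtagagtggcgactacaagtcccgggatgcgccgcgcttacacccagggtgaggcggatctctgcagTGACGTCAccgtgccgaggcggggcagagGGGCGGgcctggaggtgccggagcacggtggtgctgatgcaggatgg
Klc1: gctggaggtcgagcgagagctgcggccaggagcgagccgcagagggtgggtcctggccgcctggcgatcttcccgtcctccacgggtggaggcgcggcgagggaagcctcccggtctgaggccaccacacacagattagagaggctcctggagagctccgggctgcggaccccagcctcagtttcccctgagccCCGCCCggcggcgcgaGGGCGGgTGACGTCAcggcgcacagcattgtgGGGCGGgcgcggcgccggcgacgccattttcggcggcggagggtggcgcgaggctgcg
Kif1a: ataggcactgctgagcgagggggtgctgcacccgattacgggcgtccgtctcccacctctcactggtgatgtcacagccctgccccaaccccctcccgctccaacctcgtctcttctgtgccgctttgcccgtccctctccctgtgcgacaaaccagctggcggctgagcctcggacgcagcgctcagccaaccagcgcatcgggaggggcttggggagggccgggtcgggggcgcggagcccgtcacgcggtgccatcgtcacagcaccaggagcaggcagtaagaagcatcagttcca
Dctn3: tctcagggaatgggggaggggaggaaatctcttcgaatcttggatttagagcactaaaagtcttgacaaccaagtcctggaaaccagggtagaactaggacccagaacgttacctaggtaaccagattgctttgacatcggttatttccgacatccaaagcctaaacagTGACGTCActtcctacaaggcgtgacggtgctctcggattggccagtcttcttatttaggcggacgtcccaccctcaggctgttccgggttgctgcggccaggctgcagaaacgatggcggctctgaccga
The windows are chr2:49619036-49619335 on the plus strand for Kif5c, chr12:111758618-111758917 on the plus strand for Klc1, chr1:93101825-93102124 on the minus strand for Kif1a and chr4:41723114-41723413 on the minus strand for Dctn3. The table gives 2 starts for Kif1a, of which the more upstream is printed, and that window holds neither motif. The Kif5c window holds 1 match of each, the Klc1 window 3 GC boxes and 1 response element, and the Dctn3 window 1 response element and no GC box. RefSeq promoters were matched for 34 of 40 kinesin genes and 14 of 19 dynein-dynactin genes. TGACGTCA was found in 588 of all 32851 promoters (1.79%), in 4 of 38 kinesin promoters (10.5%, Kif17, Kif18a, Kif5c and Klc1) and in 1 of 17 dynein-dynactin promoters (5.88%). It was searched for only after the sequences had been read, so these shares are a description of chosen windows. GGGCGG was found in 35.7% of all promoters, 68.4% of kinesin promoters and 64.7% of dynein-dynactin promoters. The other motifs searched, whose matches may overlap, were CCAAT (37.4% of all, 44.7% and 35.3% of the 2 sets), TATAAA (13.6%, 13.2% and 0%) and TTTGAA (17.9%, 31.6% and 5.88%). None of these matches shows that a factor is bound.

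The captured arrays carried the markers of motor neurons and retained signal from glia. Of 12 motor neuron marker genes measured, 10 were higher in wild-type motor neurons than in cord. Chat (397 to 441 in cord and 496 to 830 in wild-type motor neurons) and Lhx3 were not called. The summed signal of the 12 on the arrays of cord, wild-type and mutant neurons was 21016 to 31377, 305388 to 319222 and 278844 to 291498. Of these markers Calcb alone read 101497 to 103441 on the wild-type motor neuron arrays. All 12 oligodendrocyte markers were lower in the wild-type motor neurons than in cord, yet their sum was still 277962 to 299080 against 710324 to 818929 in cord, and it was 338697 to 355315 in mutant motor neurons. Astrocyte markers summed to 306637 to 328073, 91628 to 105429 and 122902 to 139025 in the same order, with 9 of 10 lower in wild-type motor neurons. A single astrocyte marker, S100b, read 56388 to 61128, 63079.5 to 65923 and 65216 to 73123 and was not called, so it made up most of that sum in motor neurons. Microglial, vascular and other spinal neuron markers were lower for 9 of 9 tested in each list, and the microglial sums were 67489 to 72710, 7304 to 7555 and 9325 to 10706. The microglial Aif1 and C1qc, the oligodendrocyte Gjb1 and the vascular Pecam1 did not reach background on any wild-type motor neuron array. These marker counts are for the deposited scaling. For the Gapdh control the log2 ratio of 3′ over 5′ signal, again by group in that order, was -0.29 to -0.26, 3.65 to 4.52 and 4.33 to 4.63. For the Actb control it was 0.64 to 0.69, 4.17 to 4.97 and 4.67 to 5.84. All of these values moved with the groups, and their part in the results on motor genes was not tested.

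Signal is a linear intensity that the authors scaled to a common trimmed mean of 2500. Tests ran on log2 of the signal plus 20.3, and a fold or a log2 change below is on that scale, which understates changes of dim probe sets. A probe set is called higher or lower where limma's Benjamini-Hochberg adjusted p over all 27022 probe sets tested was under 0.05. Of the members, 67 kinesin probe sets of 29 genes and 35 dynein-dynactin probe sets of all 19 genes were bright enough to be tested. The captured arrays had lower median signals (269 to 366 against 556 to 582 in cord). From cord to wild-type motor neurons the median log2 change over the array was -0.35 with the deposited scaling, 0.13 after quantile normalization and 0.56 after centring each array on its median. Each call tests a probe set against no change and not against that shift. A call that held in all 3 scalings is therefore named as such. "Not called" alone refers to the deposited scaling.

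In wild-type motor neurons kinesin probe sets were called lower than cord more often than higher with the deposited scaling and after quantile normalization, but not after centring. With the deposited scaling this was so for all probe sets too. The share of kinesin probe sets called higher was below that of all (14.9% against 24%), while the shares called lower were closer (44.8% against 41.5%). Probe sets of Kif5c, Klc1, Kif3a, Kif3c, Kif21a, Kif2a and Kif22 rose in all 3 scalings. With the deposited scaling 10 of 67 kinesin probe sets (14.9%) were higher and 30 (44.8%) lower, against 24% and 41.5% of all probe sets tested. In all 3 scalings 9 were higher and 14 lower (13.4% and 20.9%, against 22.1% and 19.4% of all). The split was 16 higher and 23 lower after quantile normalization, where all probe sets gave 35.7% and 28.5%, and 25 higher and 14 lower after centring, where all gave 47.9% and 19.5%. The median log2 change of the kinesin probe sets was -0.53, -0.22 and 0.38 under the 3 scalings, below the median of all probe sets each time (-0.35, 0.13 and 0.56). By gene, 5 of 29 had calls only upward, 14 only downward, 2 (Kif2a and Klc1) in both directions and 8 none, beside 24.7% of all genes with calls only upward, 41.1% only downward and 9.94% in both. A bulk measurement cannot tell fewer cells of a type from less RNA per cell.

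**Figure D1:**
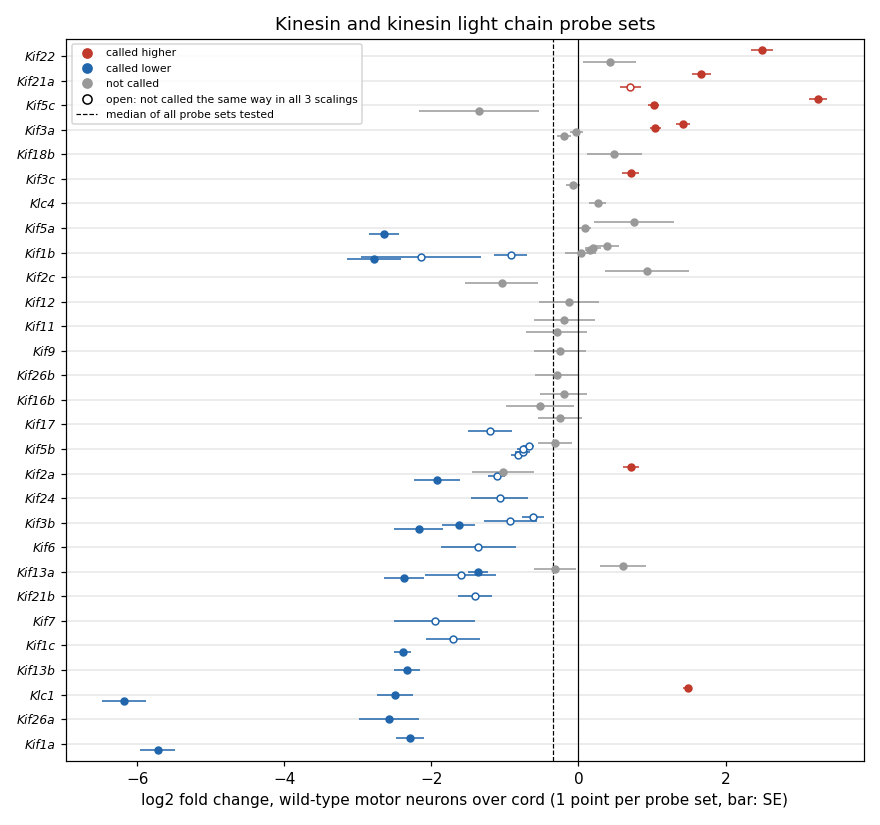
Log2 fold change of wild-type motor neurons over cord (horizontal axis) for the 67 kinesin and kinesin light chain probe sets tested, one row per gene, with bars for the standard error and colours for the call with the deposited scaling. Open points were not called the same way in all 3 scalings. Klc1 and Kif2a have probe sets on both sides of 0, and the 4 open points of Kif5b turned to small positive changes after centring.

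Among the kinesin-1 heavy chains the neuronal member Kif5c rose, the neuronal member Kif5a was not called in its brightest probe set, and the widely expressed Kif5b did not hold its direction between scalings. Kif5c probe set 1422945_a_at read 2655, 2393 and 2751 on the cord arrays, 27457, 21057 and 27088 on wild-type and 31552, 14315 and 25802 on mutant motor neuron arrays. Every motor neuron array was above every cord array, and the 2 genotypes overlapped. Against cord the log2 change in wild-type neurons was 3.26 ± 0.12 (SE, n = 3 per group, limma adjusted p = 2.64e-07), a 9.57-fold rise that held in all 3 scalings. A second Kif5c probe set, 1455266_at, went from 45282, 50420.1 and 43106 in cord to 92737, 93577 and 95499 in captured wild-type neurons, a log2 change of 1.02 ± 0.07 (SE, n = 3) that also held in all 3 scalings. The third tested Kif5c probe set, 1450804_at, was not called (-1.36 ± 0.82, SE).

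Kif5a is the heavy chain whose human counterpart is mutated in a hereditary spastic paraplegia. Probe set 1434670_at of Kif5a read 64605, 73937 and 63974 in cord, 73206, 76483 and 64791 in wild-type and 78423, 69081 and 79208 in mutant motor neurons. The 3 groups overlapped, and the change from cord to wild-type motor neurons was 0.08 ± 0.09 (SE, n = 3, limma adjusted p = 0.437), turning to -0.46 after quantile normalization and 0.99 after centring, where it was called lower and higher. Another Kif5a probe set, 1450249_s_at, fell in all 3 scalings, from 5084, 5290.0 and 5146 in cord to 1069, 597 and 827 in captured wild-type neurons (-2.65 ± 0.21, SE, n = 3). The suffix _s marks probes that the manufacturer found in transcripts of more than 1 gene. This limit holds for every other _s probe set named here. The third tested Kif5a probe set, 1427635_at, was not called (0.75 ± 0.54, SE) and was called higher in the other two scalings (1.48 and 1.66). The Kif5a probe sets thus gave different answers for the same gene.

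Kif5b carries cargo in most cell types. Its probe set 1418427_at read 38932, 42946 and 38333 in cord and 25705, 23639 and 25631 in wild-type motor neurons. With the deposited scaling 4 of 5 tested Kif5b probe sets were called lower with changes of -0.83 to -0.68, but after centring the same 4 lay at 0.08 to 0.23. Their direction depended on the scaling.

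Klc1, the kinesin light chain that links kinesin-1 to cargo in neurons, gave the widest spread between its own probe sets. Probe set 1417005_at read 43745, 44234 and 41500.4 in cord, 120304, 119105 and 122717 in wild-type and 119120.0, 116658 and 127622 in mutant motor neurons. All 6 motor neuron arrays were above all cord arrays, and the rise in wild-type neurons was 2.8-fold (1.48 ± 0.06 log2, SE, n = 3, limma adjusted p = 3.54e-07). Probe set 1448541_at read 14037, 14623 and 13773 in cord, 194, 98.6 and 275 in wild-type and 158, 19.3 and 11.7 in mutant motor neurons. All 6 motor neuron arrays were below cord by a wide margin, 2 of 3 wild-type arrays and 1 of 3 mutant arrays were above background, and the log2 change in wild-type neurons was -6.18 ± 0.30 (SE, n = 3, limma adjusted p = 6.31e-07). The third tested Klc1 probe set, 1428881_at, also fell (-2.50 ± 0.25, SE, n = 3), and all 3 calls held in all 3 scalings. Which Klc1 transcripts each probe set reads, and how far from the 3′ end, was not tested. Klc4 (1417108_at) was not called with the deposited scaling (0.26 ± 0.12, SE) and was called higher in the other two (0.76 and 1.17), and Klc3 was too dim to test.

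**Figure D2:**
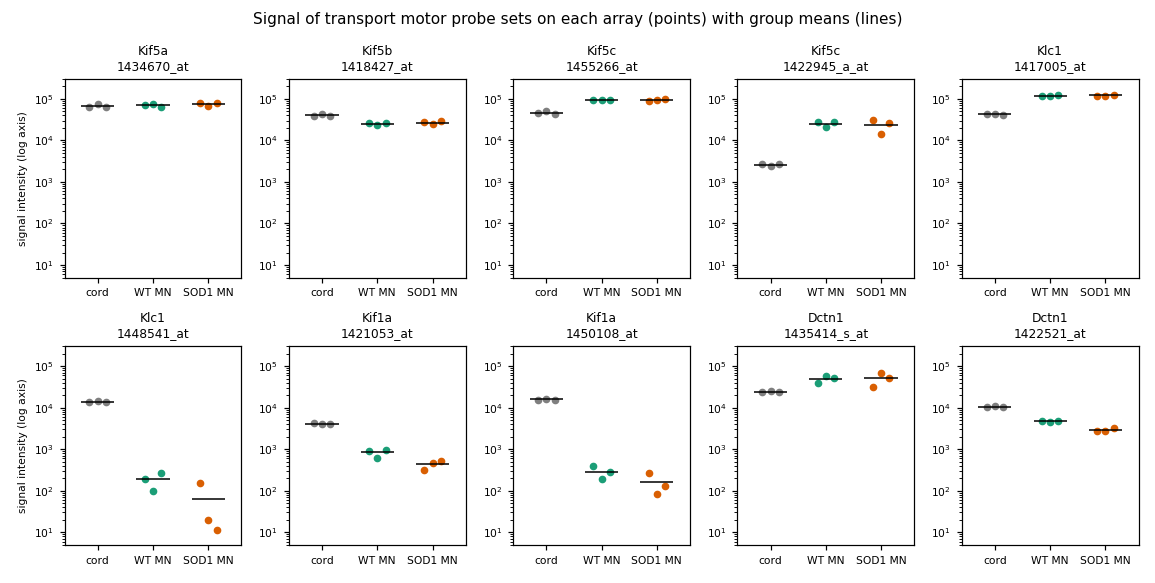
Signal intensity on each array (vertical axis, log scale) for 10 probe sets of transport motors, with 3 points per group and a line at the group mean, for cord, wild-type motor neurons (WT MN) and SOD1 mutant motor neurons (SOD1 MN). Probe sets of the same gene lie on opposite sides of cord for Klc1 and Dctn1, and both Kif1a probe sets were lower in motor neurons.

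Kif1a and Kif1b carry synaptic vesicle precursors and mitochondria, and Kif1a fell in both of its probe sets. Probe set 1450108_at of Kif1a read 15105, 16700.5 and 15637 in cord, 396, 188 and 289 in wild-type and 274, 84.8 and 132 in mutant motor neurons. The motor neuron arrays were all far below cord and overlapped between genotypes, and the fall in wild-type neurons was 52.8-fold (-5.72 ± 0.23 log2, SE, n = 3, limma adjusted p = 3.36e-07). Probe set 1421053_at read 4078 to 4185 in cord and 615 to 969.7 in wild-type motor neurons, a change of -2.29 ± 0.19 (SE, n = 3), and both falls held in all 3 scalings. The captured arrays had far higher 3′ over 5′ control ratios than cord. How far from the 3′ end these Kif1a probe sets lie, and the part of that in their falls, was not tested. Kif1b had 7 tested probe sets that did not move alike. Its probe set 1423994_at read 54822, 59329.5 and 55664 in cord and 65730.4, 63976 and 59628 in wild-type motor neurons, a change of 0.16 ± 0.07 (SE, n = 3) that was not called, turned to -0.37 and a call lower after quantile normalization, and was 1.06 and called higher after centring. The Kif1b probe set 1425270_at fell from 2928, 2859.7 and 2839 to 720.5, 214 and 413 (-2.78 ± 0.37, SE, n = 3), in all 3 scalings. Kif1c, a carrier of vesicles in many cell types, fell in both tested probe sets, and in 1424746_at (5634 to 5880.3 in cord against 1036 to 1133 in wild-type motor neurons, -2.39 ± 0.12, SE, n = 3) it did so in all 3 scalings.

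The heterotrimeric kinesin-2 motor, which moves vesicles in axons and builds cilia, pairs Kif3a with Kif3b or Kif3c. Kif3a rose in 2 of 4 tested probe sets and did not pass the test in the others with the deposited scaling. Probe set 1436560_at of Kif3a read 10309.9, 10655 and 10933 in cord, 22738, 21746 and 21479.7 in wild-type and 26158, 27307 and 26379.7 in mutant motor neurons. All motor neuron arrays were above cord, and the rise in wild-type neurons was 2.07-fold (1.05 ± 0.07 log2, SE, n = 3, limma adjusted p = 4.60e-06), in all 3 scalings. The second risen Kif3a probe set, 1420375_at, changed by 1.42 ± 0.10, while 1449841_at (-0.20 ± 0.10) and 1455652_at (-0.03 ± 0.09, SE, n = 3) were called only after centring, as higher (0.71 and 0.87). Kif3c rose in 1434947_at (9475 to 9784 in cord against 13095 to 17722 in wild-type motor neurons, 0.71 ± 0.12, SE, n = 3) in all 3 scalings, and its probe set 1448946_at was called higher after centring only (-0.08 ± 0.09 as deposited, 0.83 centred). Kif3b went the other way, with all 4 tested probe sets called lower (-2.17 to -0.62) and 2 of them, 1450073_at and 1450074_at, called lower in all 3 scalings. In all 3 scalings Kif3a and Kif3c thus had a probe set that rose, and Kif3b had probe sets that fell. Other tested probe sets of these genes were called in only some of the scalings.

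Kif21a, a kinesin that slows microtubule growth in axons, rose in 1455029_at from 10779.8, 14395 and 10867 in cord to 40439, 40369.7 and 33493 in captured wild-type neurons. No arrays overlapped, and the change was 1.67 ± 0.13 (SE, n = 3, limma adjusted p = 7.86e-06) and held in all 3 scalings. Kif13a and Kif13b, which carry endosomes and membrane receptors, were lower. Kif13b 1436056_at fell from 7255, 6819 and 6574 to 1709, 1072 and 1342 (-2.33 ± 0.17, SE, n = 3), and Kif13a 1451890_at from 1644, 1234 and 1549 to 307, 307 and 199.7 (-2.37 ± 0.27, SE, n = 3), both in all 3 scalings. Kif13a had 5 tested probe sets, of which 3 were called lower and 2 not called, though 1 of these, 1447853_x_at, was called higher after quantile normalization and centring (1.42 and 1.51). Kif17, a dendritic motor, and Kif21b were called lower with the deposited scaling (-1.21 for 1422762_at and -1.41 for 1435772_at), but not in all 3, and Kif16b, an endosome motor, was not called in either tested probe set. Over the 49 tested probe sets of these cargo kinesins and light chains, 8 were higher and 24 lower with the deposited scaling, 11 and 20 after quantile normalization and 20 and 12 after centring, so the balance turned with the scaling. The shares of all probe sets to read these against are 24% and 41.5%, 35.7% and 28.5%, and 47.9% and 19.5%.

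The mitotic kinesins drive spindle assembly and cytokinesis in dividing cells and were mostly too dim to test. They had 24 probe sets, of which 7 were tested and 6 were below background on all 9 arrays. Kif14, Kif15, Kif18a, Kif20a, Kif20b, Kif23 and Kif4 had no probe set bright enough to test. With the deposited scaling only Kif22, which moves chromosome arms, had a call, 1 of the 7 probe sets. After quantile normalization and after centring 4 of the 7 were called higher and none lower, 2 of Kif22 and 1 each of Kif18b (1453226_at) and Kif2c (1432392_at), under scalings where 35.7% and 47.9% of all probe sets were higher. The Kif22 probe set 1437716_x_at read 3269, 3173 and 3442 in cord, 16778, 24147 and 15998 in wild-type and 16616, 23865 and 16199.6 in mutant motor neurons. All motor neuron arrays were above cord, a 5.63-fold rise in wild-type neurons (2.49 ± 0.15 log2, SE, n = 3, limma adjusted p = 2.05e-06) that held in all 3 scalings. The other tested Kif22 probe set, 1451128_s_at, read 179.9 to 306 in cord and 289.8 to 389 in wild-type motor neurons and was called higher only in the other two scalings (0.42 ± 0.37, SE, as deposited), and 1423813_at was too dim to test. An _x suffix marks probes that may also match unrelated transcripts, so the rise of Kif22 is uncertain. This limit holds for every other _x probe set named here. Of 9 tested genes on the list of dividing cell markers, 2 were higher and 2 lower with the deposited scaling, and 4 were higher and 0 lower after quantile normalization and after centring. The part of dividing cells in the mitotic kinesin values was not tested.

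The remaining kinesins act on microtubule ends, in cilia or in signalling. Kif2a, which takes tubulin off microtubule ends and prunes axon branches, moved in both directions. Probe set 1450053_at read 10937, 13235 and 11755 in cord, 21388, 17566 and 19999 in wild-type and 27817, 26675 and 29306 in mutant motor neurons. Both motor neuron groups were above cord, and the mutant arrays were above all others, with a change from cord to wild-type neurons of 0.71 ± 0.11 (SE, n = 3, limma adjusted p = 0.000374) in all 3 scalings. The Kif2a probe set 1452499_a_at fell from 2379, 2162 and 1984 to 724, 318 and 732 (-1.93 ± 0.31, SE, n = 3) in all 3 scalings, and 1450052_at fell with the deposited scaling and after quantile normalization (-1.11 ± 0.11 and -1.06) but was not called after centring. Kif26a, a kinesin without motor activity that limits growth signalling in neurons, read 657, 449 and 609 in cord and 58.3, 93.2 and 86.1 on the wild-type motor neuron arrays, none of which reached background. It was at least 3.67-fold lower there (limma adjusted p = 0.000535). Kif6, Kif7, which acts in Hedgehog signalling in cilia, and Kif24 were called lower with the deposited scaling only (-1.36, -1.96 and -1.07), while Kif9, Kif12 and Kif26b were not called. Of 11 tested probe sets in this group, 1 was higher and 6 lower with the deposited scaling, 1 and 3 after quantile normalization and 1 and 2 after centring, beside the same shares of all probe sets as above. Of 6 tested ependymal and ciliated cell markers, 2 were lower with the deposited scaling and 1 in the other two.

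The genes that connect kinesins to cargo were given by a list of 21 partners, of which 18 were tested. With the deposited scaling 10 were higher and 7 lower (8 and 8 after quantile normalization, 12 and 4 after centring). Of all probe sets 24% were higher and 41.5% lower (35.7% and 28.5% after quantile normalization, 47.9% and 19.5% after centring). The partners had a median of 0.34 on the log2 scale (0.0083 and 1.25 in the other two) against -0.35 over the array (0.13 and 0.56). The median of this list thus lay below that of all probe sets after quantile normalization and above it otherwise. The largest changes were falls. Mapk8ip1, a scaffold that binds kinesin light chains, read 13473, 14576 and 14316 in cord and 741, 391 and 718 in wild-type motor neurons, with no overlap (-4.53 ± 0.23, SE, n = 3, limma adjusted p = 7.56e-07). Trak2, an adaptor for mitochondria, fell from 17580.5, 17907 and 17897 to 3876, 1123 and 3335 (-2.85 ± 0.39, SE, n = 3). The lysosome adaptor Plekhm2 (-1.86 ± 0.27) and the kinesin-1 adaptor Fez1 (-1.29 ± 0.09, SE, n = 3) also fell, and all 4 falls held in all 3 scalings. Kifap3, the accessory subunit of kinesin-2, was chosen after its values were seen. It rose in all 3 scalings from 26399.6, 26223 and 26624 to 57881, 50570.5 and 49549.8 (0.99 ± 0.08, SE, n = 3).

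Dynein and dynactin probe sets included rises in all 3 scalings of Dync1h1, Dync1i1, Dynll2, Dynlt3, Dctn1, Dctn3 and Dctn6 and falls of Dctn4, Dynlrb2 and a further Dynlt3 probe set. Of 35 tested probe sets 13 (37.1%) were higher and 12 (34.3%) lower with the deposited scaling, against 24% and 41.5% of all probe sets. In all 3 scalings 9 were higher and 3 lower (25.7% and 8.57%, against 22.1% and 19.4% of all). The split was 11 higher and 13 lower after quantile normalization, where all probe sets gave 35.7% and 28.5%. After centring it was 21 higher and 3 lower, where all gave 47.9% and 19.5%. The median log2 change was 0.08, -0.08 and 0.99 under the 3 scalings, above the median of all probe sets with the deposited scaling and after centring (-0.35 and 0.56) and below it after quantile normalization (0.13). By gene, 5 of 19 had calls only upward, 6 only downward, 4 (Dctn1, Dctn4, Dync1h1 and Dynlt3) in both directions and 4 none. Of all genes, 24.7% had calls only upward, 41.1% only downward and 9.94% in both directions.

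**Figure D3:**
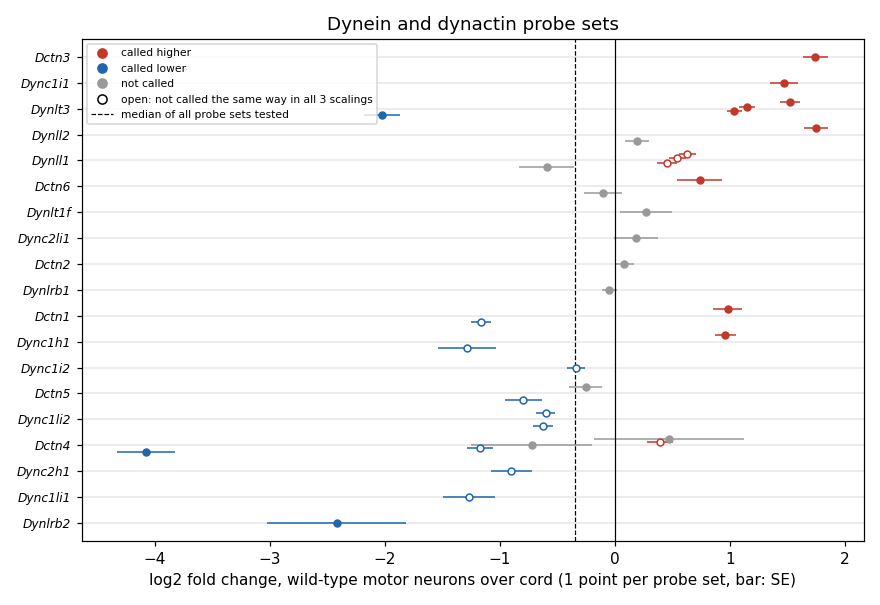
Log2 fold change of wild-type motor neurons over cord (horizontal axis) for the 35 dynein and dynactin probe sets tested, one row per gene, with bars for the standard error and colours for the call with the deposited scaling. Open points were not called the same way in all 3 scalings. Dctn3, Dync1i1 and Dynll2 lie at 1.47 to 1.75, Dctn4 1420863_at lies at -4.08, and the open points of Dync1i2, Dync1li2, Dync2h1 and Dctn5 turned positive after centring.

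Dync1h1, the heavy chain that holds the motor of dynein 1, rose in the probe set of highest signal. Probe set 1416648_at read 39039, 42965 and 41229.5 in cord, 70607, 88246 and 81947 in wild-type and 68850.2, 104493 and 92582 in mutant motor neurons. All motor neuron arrays were above cord and the genotypes overlapped, with a 1.95-fold rise in wild-type neurons (0.96 ± 0.09 log2, SE, n = 3, limma adjusted p = 2.55e-05) in all 3 scalings. Another Dync1h1 probe set, 1439950_at, fell from 1021, 724 and 938 to 336, 347 and 374 with the deposited scaling (-1.28 ± 0.25) and was not called in the others. The intermediate chain gene enriched in neurons, Dync1i1, read 14941, 16192 and 15728 in cord, 44484, 50872 and 36060.3 in wild-type and 53210.5, 34202 and 30765 in mutant motor neurons. No motor neuron array overlapped cord, and the rise was 2.78-fold (1.47 ± 0.12 log2, SE, n = 3, limma adjusted p = 1.01e-05) in all 3 scalings. Dync1i2, the widely expressed intermediate chain, was called lower with the deposited scaling, from 22489.9, 22756 and 22517 to 17117, 19078 and 17463 (-0.34 ± 0.08, SE, n = 3), but turned to 0.57 after centring.

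The light intermediate chains attach adaptors to dynein, and both were called lower with the deposited scaling and after quantile normalization, but not after centring. Dync1li1 read 8094, 8415 and 8708 in cord and 4619.6, 2313 and 3942 in wild-type motor neurons without overlap (-1.27 ± 0.23, SE, n = 3), and after centring the change was -0.36 and not called. The 2 probe sets of Dync1li2 changed by -0.62 and -0.60 and turned to 0.28 and 0.31 after centring. Dynein 2 runs inside cilia. Its heavy chain Dync2h1 was called lower with the deposited scaling (-0.90 ± 0.18, SE, n = 3, from 3064, 3659 and 3609 to 2323, 1490.4 and 1769) but lay at 0.0069 after centring, and Dync2li1 was not called (0.19 ± 0.19) but was called higher in the other two scalings (0.77 and 1.09).

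The dynein light chains, small proteins at the base of the dynein tail, were 13 of the 35 tested probe sets. With the deposited scaling 7 were higher and 2 lower, beside 24% and 41.5% of all probe sets. After quantile normalization 5 were higher and 4 lower, beside 35.7% and 28.5%, with a median log2 change of 0.12 against 0.13 for all. After centring 10 were higher and 2 lower, beside 47.9% and 19.5%. Dynll2 1418371_at read 16092, 17513 and 17059 in cord, 49355, 65018 and 57057 in wild-type and 46546, 52819 and 51459 in mutant motor neurons. All motor neuron arrays were above cord, a 3.36-fold rise in wild-type neurons (1.75 ± 0.10 log2, SE, n = 3, limma adjusted p = 1.68e-06) in all 3 scalings. The other Dynll2 probe set, 1418258_s_at, read 55191 to 66294 in cord and 60119.9 to 74856 in wild-type motor neurons and was not called (0.19 ± 0.10), turning to a call lower after quantile normalization (-0.33) and higher after centring (1.10). Dynll1, which also serves as a hub protein outside dynein, was called higher in 3 of 4 tested probe sets with the deposited scaling (0.46 to 0.63), but after quantile normalization these lay at -0.08 to 0.12 and were not called.

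Dynlt3 had 4 tested probe sets. Probe set 1459854_s_at read 24001, 24949 and 24055 in cord, 67758, 78734 and 64692 in wild-type and 88200.4, 104400.0 and 78238 in mutant motor neurons, with every motor neuron array above cord (1.53 ± 0.09, SE, n = 3). The rises of 1420614_at (1.15 ± 0.07) and 1449929_at (1.04 ± 0.07) went with it, while 1449928_at fell from 16113, 14643 and 14629.8 to 4828, 3226 and 3253 (-2.02 ± 0.16, SE, n = 3). All 4 calls held in all 3 scalings, so this gene had 3 probe sets that rose and 1 that fell. Dynlrb2, a roadblock light chain, fell in all 3 scalings from 834, 786 and 646 in cord to 30.5, 209 and 237 in captured wild-type neurons, where 2 of 3 arrays were above background (-2.42 ± 0.61, SE, n = 3, limma adjusted p = 0.00703). Its paralogue Dynlrb1 read 34770.3 to 36225 in cord and 33368 to 35360.2 in wild-type motor neurons and was not called (-0.05 ± 0.07), with a call lower after quantile normalization (-0.52) and higher after centring (0.86). Dynlt1f belongs to a cluster of near-identical genes, so its probe set 1428117_x_at is uncertain, and it was not called (0.27 ± 0.22) but was called higher in the other two scalings.

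Dynactin tethers dynein to cargo and to the microtubule. Dctn1, its largest subunit, which binds both dynein and microtubules, split between its 2 probe sets. Probe set 1435414_s_at read 24467, 24728 and 24127 in cord, 38938, 56933 and 50749.6 in wild-type and 32123, 70366 and 50917 in mutant motor neurons, above cord on every array (0.98 ± 0.13, SE, n = 3, limma adjusted p = 0.000168), in all 3 scalings. It carries the suffix _s, so this rise may not be of Dctn1 alone. Probe set 1422521_at read 10142, 11035 and 10697 in cord, 4777, 4518 and 4910.4 in wild-type and 2698, 2771 and 3268 in mutant motor neurons, below cord on every array (-1.16 ± 0.09, SE, n = 3, limma adjusted p = 7.39e-06), and after centring the change was -0.26 and not called. Dctn3, a subunit of the shoulder that joins the projecting arm to the filament, read 11572, 11827 and 10478 in cord, 34199.8, 44211 and 35907 in wild-type and 23178, 35125 and 30825 in mutant motor neurons. It rose 3.35-fold without overlap (1.75 ± 0.11 log2, SE, n = 3, limma adjusted p = 2.23e-06) in all 3 scalings. Dctn2, the subunit dynamitin, read 22544 to 24624 in cord and 22706 to 26278 in wild-type motor neurons and was not called (0.08 ± 0.08), turning to a call lower after quantile normalization (-0.32) and higher after centring (0.99).

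Dctn4, Dctn5 and Dctn6 belong to the complex at the pointed end of the dynactin filament. Dctn6 1416499_a_at rose from 12308, 7299 and 11375 in cord to 17369.6, 19143 and 14313 in captured wild-type neurons (0.74 ± 0.20, SE, n = 3, limma adjusted p = 0.00919) in all 3 scalings, and its probe set 1448368_at was called higher after centring only (-0.10 ± 0.16 as deposited). Dctn4 had 5 tested probe sets that disagreed. Its probe set 1420863_at fell from 4181, 4536 and 4153 to 310.2, 158 and 262 (-4.08 ± 0.25, SE, n = 3, limma adjusted p = 2.07e-06) in all 3 scalings, 1420862_at was called lower with the deposited scaling but not after centring (-1.17 ± 0.11), 1420861_at was called higher with it but not after quantile normalization (0.39 ± 0.11), and 2 others were not called. Dctn5 1415748_a_at was called lower with the deposited scaling (-0.79 ± 0.16) and turned to 0.11 after centring.

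A list of 23 dynein and dynactin partners had 20 tested members, 9 higher and 6 lower with the deposited scaling (8 and 6 after quantile normalization, 14 and 3 after centring), with medians of 0.15, -0.06 and 1.06 on the log2 scale against -0.35, 0.13 and 0.56 over the array. The median of this list too lay below that of all probe sets after quantile normalization and above it otherwise. Of all probe sets 24% were higher and 41.5% lower with the deposited scaling. The shares were 35.7% and 28.5% after quantile normalization and 47.9% and 19.5% after centring. Nde1, which joins the Lis1 protein to dynein, read 3927, 4714 and 3938 in cord and 452, 391 and 494 in wild-type motor neurons without overlap (-3.18 ± 0.17, SE, n = 3, limma adjusted p = 1.10e-06). Rab11fip3, an adaptor for recycling endosomes, fell from 3540.4, 4089.6 and 4286 to 1210.2, 965 and 550.4 (-2.17 ± 0.27, SE, n = 3). Htt, the huntingtin scaffold, rose from 1144, 1193 and 1454 to 3036, 7687 and 6264 (2.05 ± 0.31), and Rilp, which recruits dynein to late endosomes, from 1279.6, 1121 and 1214 to 4966, 4913 and 5114 (2.04 ± 0.12, SE, n = 3). These 4 calls held in all 3 scalings. Actr1a, whose protein forms the dynactin filament, was chosen after its values were seen and rose in all 3 scalings from 17814, 17047 and 17471 to 35361, 31433 and 40331 (1.03 ± 0.10, SE, n = 3).

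With the deposited scaling, probe sets of 1 gene were thus called in both directions for 6 members, and only Klc1, Kif2a and Dynlt3 kept both directions in all 3 scalings. Of kinesin genes with 2 or more tested probe sets, 2 of 18 were, and of such dynein-dynactin genes 4 of 9, beside 21.5% of all such genes. Levels of different probe sets are not comparable, and no genome of the array's probes was used here, so where on the transcript each lies was not analysed here.

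Between SOD1 mutant and wild-type motor neurons no motor gene passed the test. With limma, 0 of 67 kinesin and 0 of 35 dynein-dynactin probe sets were called in either direction, against 0.152% higher and 0.0703% lower of all 27022 tested. At an unadjusted p under 0.05 there were 11 kinesin (16.4%) and 8 dynein-dynactin (22.9%) probe sets, against 15.2% of all. The median log2 change was 0.01 for kinesins, -0.06 for dynein and dynactin and -0.01 for all probe sets. The test was of limited reach over the tested probe sets as a whole. Changes were given to 200 of 27022 probe sets, picked at random, on simulated arrays of this comparison. It recovered 13% of changes of 1 and 42% of changes of 2 on the log2 scale. The picked probe sets were dim and bright ones alike, so the recovery for the motor genes themselves was not measured. A fit that shares the spread over all 9 arrays called 9 member probe sets, among them Kif26a (adjusted p = 0.00979) and Dctn1 1422521_at (adjusted p = 0.0155), and 1184 over the whole array.

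**Figure D4:**
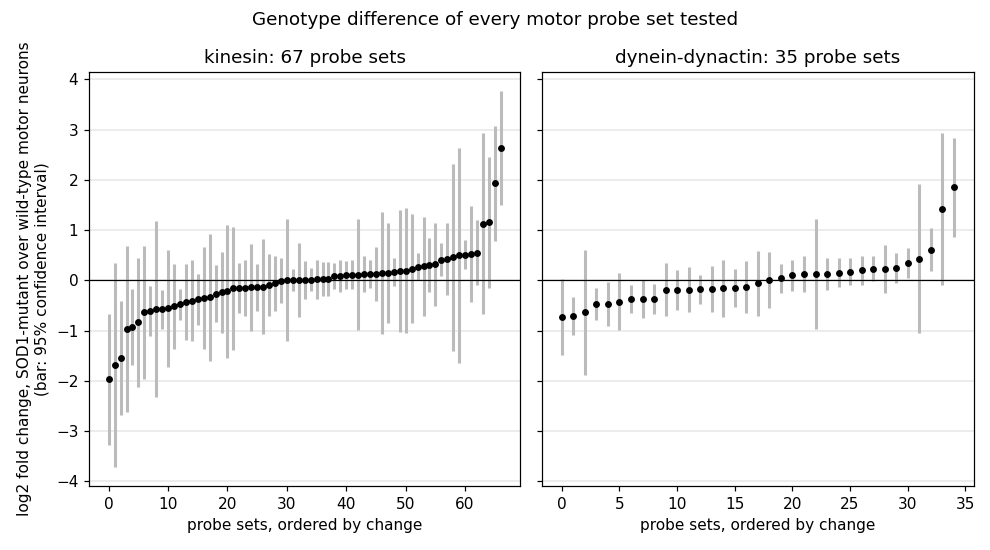
Log2 fold change of SOD1 mutant over wild-type motor neurons (vertical axis) for each tested probe set, ordered by its change (horizontal axis), kinesins on the left and the dynein-dynactin set on the right, with bars for the 95% confidence interval from limma. Most points lie near 0, and no probe set passed the adjusted threshold.

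The core motor genes are given with the 95% interval of their log2 change from wild-type to mutant motor neurons. For Kif5a 1434670_at the change was 0.08 with a 95% interval of -0.18 to 0.34, for Kif5c 1455266_at 0.01 (-0.22 to 0.24) and for Klc1 1417005_at 0.0041 (-0.22 to 0.23). For Kif5b 1418427_at it was 0.10 (-0.17 to 0.38), for Kif1b 1423994_at 0.11 (-0.18 to 0.40) and for Kif3a 1436560_at 0.28 (0.02 to 0.54). Among retrograde motor genes, Dync1h1 1416648_at changed by 0.13 (-0.23 to 0.48), Dync1i1 by -0.18 (-0.63 to 0.27), Dync1i2 by 0.24 (-0.06 to 0.54) and Dctn3 by -0.37 (-0.75 to 0.01). Intervals that hold 0 do not show that the genotypes are alike, and each belongs to 1 probe set. For Klc1 1448541_at, above background on 2 of 3 wild-type and 1 of 3 mutant arrays, the interval was -3.71 to 0.35. Dynll1 1417339_a_at changed by 0.20 (-0.09 to 0.49) and Dynll2 1418258_s_at by 0.04 (-0.24 to 0.33). Kif1a 1421053_at, with all mutant arrays (309, 467 and 522) below all wild-type arrays (932, 615 and 969.7), changed by -0.93 (-1.68 to -0.17, limma adjusted p = 0.24).

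The mutant and wild-type arrays did not overlap for 14 kinesin and 10 dynein-dynactin probe sets. Of the kinesins, 8 of 67 (11.9%) were higher on every mutant array and 6 (8.96%) lower, beside 10.5% and 11.7% of all probe sets. Of the dynein-dynactin set, 4 of 35 (11.4%) were higher and 6 (17.1%) lower. The kinesin with the largest such difference was Kif26a. Its probe set 1447933_at read 58.3, 93.2 and 86.1 on the wild-type and 368, 863 and 652 on the mutant motor neuron arrays, where cord read 657, 449 and 609. All 3 wild-type neuron arrays were below background and all 3 mutant arrays above it, and these spanned the range of cord. The mutant signal was at least 3.85-fold that of the wild type (n = 3, limma adjusted p = 0.0785), which did not pass the test. Gja1, an astrocyte gap junction gene, was the only marker tested that was called between the genotypes (1.25 ± 0.15, SE, n = 3, limma adjusted p = 0.017), and the astrocyte, oligodendrocyte and microglial sums were higher, and the motor neuron sum lower, on all mutant than on all wild-type motor neuron arrays. Their part in the Kif26a value was not tested.

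Kif2a again split between its probe sets. Probe set 1450053_at read 21388, 17566 and 19999 in wild-type and 27817, 26675 and 29306 in mutant motor neurons, higher on every mutant array (0.51 ± 0.13, SE, n = 3, limma adjusted p = 0.134). Probe set 1452499_a_at read 724, 318 and 732 and 182, 47.6 and 209.9, lower on every mutant array (-1.97 ± 0.59, limma adjusted p = 0.165). Neither passed the test. Kif6 1442238_a_at read 157, 113 and 58.3 in wild-type and 411, 552 and 398 in mutant motor neurons, with 1 of 3 wild-type arrays above background and all mutant arrays above it (1.93 ± 0.51, limma adjusted p = 0.139). The Kif2a probe set 1454107_a_at was also lower on every mutant array (-1.54 ± 0.51). Kif3a 1420375_at and 1449841_at were lower and 1436560_at higher on every mutant array (-0.48 ± 0.14, -0.57 ± 0.18 and 0.28 ± 0.12, SE, n = 3), again without passing. The other kinesins without overlap were Kif1b 1451762_a_at (-0.61), Kif21a 1455029_at (0.16), Kif5b 1418429_at (0.41), Klc1 1428881_at (0.55) and the mitotic Kif2c 1437611_x_at (1.16), with limma adjusted p of 0.226 to 0.567.

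**Figure D5:**
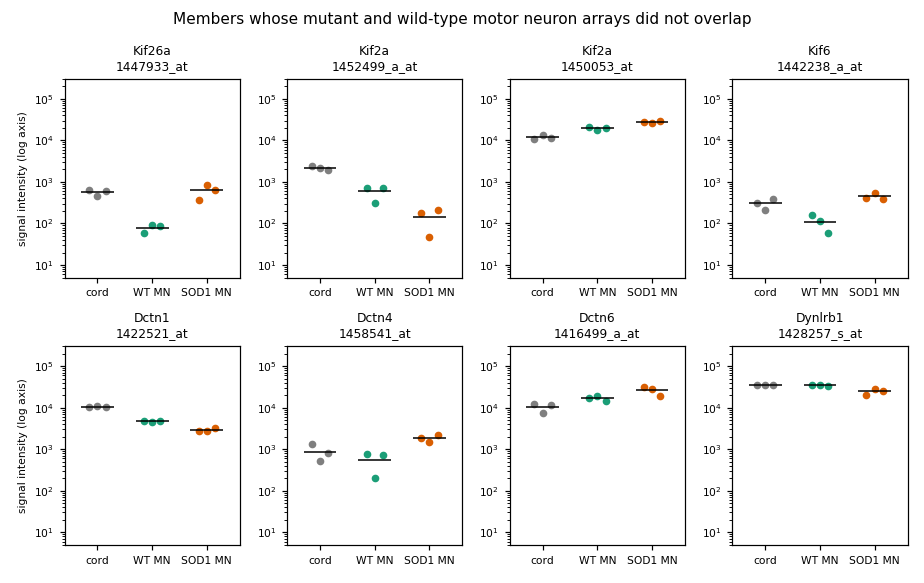
Signal intensity on each array (vertical axis, log scale) for 8 probe sets whose mutant and wild-type motor neuron arrays did not overlap, with 3 points per group and a line at the group mean. None of the 8 passed the adjusted threshold. Kif26a lies near the cord level in mutant motor neurons (368 to 863), and Dctn1 1422521_at is lowest there (2698 to 3268).

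In dynactin, Dctn1 1422521_at was lower on every mutant array (4777, 4518 and 4910.4 in wild-type and 2698, 2771 and 3268 in mutant motor neurons, -0.70 ± 0.17, SE, n = 3, limma adjusted p = 0.125). Its other probe set, 1435414_s_at, overlapped between genotypes (0.01 ± 0.25). Dctn4 1458541_at was higher on every mutant array (774, 205 and 709 against 1843, 1468 and 2185, 1.85 ± 0.44, limma adjusted p = 0.12), whereas 1420862_at was lower on every one (2407, 2298 and 2401 against 1706, 1941 and 1524, -0.46 ± 0.20, limma adjusted p = 0.307) and the other 3 tested Dctn4 probe sets overlapped. Dctn6 1416499_a_at was higher on every mutant array (0.61 ± 0.19), Dctn2 lower on every one (-0.37 ± 0.13), and the light chain Dynlrb1 lower on every one (34898, 35360.2 and 33368 in wild-type and 20552, 28822 and 25753 in mutant motor neurons, -0.48 ± 0.14, SE, n = 3, limma adjusted p = 0.17). The others without overlap were Dync1i2 (0.24), Dync1li2 1433926_at (-0.37), Dynlt3 1449929_at (0.23) and Dynlt1f (-0.73), with limma adjusted p of 0.249 to 0.43. None of the 18 kinesin partners and none of the 20 dynein-dynactin partners tested was called between the genotypes, with median changes of -0.12 and -0.0046.

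Mutant motor neurons were also set against the wild-type cord, a comparison that mixes genotype with tissue and shares its cord arrays with the wild-type comparison, so the 2 are not independent. Of 67 kinesin probe sets 10 were higher and 26 lower (14.9% and 38.8%, against 21.9% and 40.2% of all), and 9 and 14 in all 3 scalings (against 20% and 18.7% of all). Of 35 dynein-dynactin probe sets 14 were higher and 15 lower (40% and 42.9%), and 10 and 5 in all 3 scalings (28.6% and 14.3%). Side by side, the log2 change against cord in mutant and in wild-type neurons was 3.12 and 3.26 for Kif5c 1422945_a_at, 1.49 and 1.48 for Klc1 1417005_at, and -3.22 and -2.29 for Kif1a 1421053_at. Kif2a 1454107_a_at, not called in wild-type neurons (-1.03), was lower than cord in mutant neurons in all 3 scalings (-2.57 ± 0.52, SE, n = 3). For dynein and dynactin the pairs were 1.09 and 0.96 for Dync1h1 1416648_at, 1.57 and 1.75 for Dynll2 1418371_at, 1.37 and 1.75 for Dctn3, and -1.86 and -1.16 for Dctn1 1422521_at. Among partners, 7 of 18 for kinesins were higher and 6 lower, and 10 of 20 for dynein and dynactin were higher and 5 lower, with medians of 0.19 and 0.44 against -0.37 for all probe sets. After quantile normalization kinesin partners turned to 6 higher and 9 lower with a median of -0.24 against 0.12 for all probe sets, and dynein-dynactin partners were 9 higher and 5 lower with a median of 0.20. After centring the counts were 12 and 6, and 14 and 4, with medians of 1.04 and 1.29 against 0.48. Over all 27022 probe sets 8997 were higher and 7371 lower after quantile normalization, and 11599 and 5157 after centring.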

How the data were processed

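Labelled RNA was hybridised to 9 arrays, per the labels 3 of whole cord, 3 of wild-type and 3 of SOD1 mutant motor neurons. The deposited values are 1 linear signal intensity per probe set and array, and a check of the values showed that each array had been scaled to a 2% trimmed mean of 2500 before the authors deposited it (software: not given in the sources used here). From 45101 probe sets 64 controls were removed, and the 27022 whose mean over the group means was above the 40th percentile were tested. Values were log2 transformed after adding 20.3, the 10th percentile of all deposited intensities. Each comparison was fitted on its own 6 arrays by limma 3.58.1 under R 4.3.3, using lmFit, then eBayes with trend, and the two-sided p-values were adjusted by Benjamini-Hochberg over the whole table (threshold 0.05). Background on an array was the 95th percentile of 27 Bacillus subtilis control probe sets (131 to 244). A "fold of at least" sets the bright group's mean against that level where a probe set was below it on all 3 arrays of the other group. The number of arrays limits the precision, and the intensities carry no read depth.

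The members and gene lists were chosen with earlier results of these data known. Named with values were, per comparison and set, up to 10 largest rises and 10 largest falls past the threshold with arrays that did not overlap, 15 core motor genes by their brightest probe set, other members where a count turned on them, and up to 4 partners per partner list and comparison. The partners Kifap3 and Actr1a were added after their values were seen. Same-numbered arrays did not all vary together, so no pairing was used, and the values are given under the dependence on processing. The fit was tested on simulated data. Alternatives covered scaling, the constant added before the log, the filter, the trend, the array weights, the background level, all arrays in 1 fit, the replicate block and leaving out each array. Plots were drawn with matplotlib 3.10.9.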

Additional observations from a re-analysis of the deposited data

How the results depend on the processing

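Counts against cord depended most on scaling. In wild-type motor neurons the kinesin calls were 16 higher after quantile normalization, 25 higher and 14 lower after centring, 16 higher with array weights and 16 lower with a filter at the 60th percentile, against 10 and 30, and the dynein-dynactin calls were 21 higher and 3 lower after centring, against 13 and 12. Calls over all probe sets moved too, from 24% higher and 41.5% lower to 35.7% and 28.5% after quantile normalization and 47.9% and 19.5% after centring. With array weights there were 20153 calls in all, against 17700. The filter at the 60th percentile tests fewer probe sets, so counts with it have a smaller base than the main counts. Shares of all probe sets by direction were not taken for the array weights, this filter or the fits without 1 array. Member counts under those settings are therefore not read as results about the members. In mutant motor neurons against cord, kinesins were 17 higher after quantile normalization, 25 higher and 15 lower after centring and 17 lower with the filter at the 60th percentile, against 10 and 26, and the dynein-dynactin set was 5 lower after centring, against 15. Between genotypes, where no member was called, 3 kinesin probe sets were higher and 3 lower with all 9 arrays in 1 fit and 8 higher and 7 lower with array weights, and the dynein-dynactin set had 1 higher and 2 lower and then 3 higher and 5 lower. The weights, 0.41 to 4.32 in that comparison, favoured the third array of each group and gave 5252 calls over all probe sets against 60. Leaving out 1 array at a time gave 10 to 15 higher and 25 to 31 lower kinesins and 12 to 14 higher and 12 to 13 lower dynein-dynactin probe sets in wild-type neurons against cord, 9 to 13, 23 to 31, 13 to 15 and 12 to 15 in mutant neurons against cord, and 0 each between genotypes. The replicate numbers share no stated source and were not taken to pair the arrays, since not every pair's correlation was over 0.1. Between genotypes 2 of 3 pairs were over it, and 2 of 3 mutant arrays correlated best with their own number, a hint from the data and not from the design. The correlations of same-numbered deviations were -0.0035 to 0.031, 0.0023 to 0.17 and -0.043 to 0.017 in the 3 comparisons. With the replicate number as a block, 2 kinesin probe sets (Kif26a and Kif2a 1450053_at) and 2 dynein-dynactin probe sets (Dctn6 1416499_a_at and Dctn4 1458541_at) were called higher in the mutant, and 443 probe sets over the array. The causes of these shifts were not tested.

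Directions also turned. For wild-type neurons against cord, centring gave 0.11 for Dctn5 1415748_a_at, 0.57 for Dync1i2, 0.23 for Kif5b 1418427_at, 0.0069 for Dync2h1 and 0.28 for Dync1li2 1433926_at, and quantile normalization gave -0.33 for Dynll2 1418258_s_at, -0.37 for Kif1b 1423994_at, -0.32 for Dctn2 and -0.46 for Kif5a 1434670_at. For mutant neurons against cord, centring gave 0.75 for Dync1i2, 0.27 for Kif5b 1418427_at and 0.56 for Dctn2, and quantile normalization gave -0.35 for Dynll2 1418258_s_at, -0.33 for Kif1b 1423994_at, -0.43 for Kif5a 1434670_at and -0.23 for Kif1b 1451200_at. Between genotypes only changes near 0 turned, and none was called. After quantile normalization and centring they were -0.088 and -0.056 for Klc1 1417005_at, -0.015 and -0.017 for Dynll2 1418258_s_at, -0.061 and -0.049 for Dctn1 1435414_s_at and -0.070 and -0.046 for Kif5c 1455266_at. Array weights gave -0.013 for Dynll2 and -0.00294 for Dctn1. Without 1 array at a time the ranges were -0.034 to 0.031 for Klc1, -0.051 to 0.11 for Dynll2, -0.26 to 0.31 for Dctn1, -0.033 to 0.048 for Kif5c and -0.0016 to 0.30 for Dync1h1 1416648_at.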

Other observations

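Several probe sets of the motor genes lay under the filter on low signal and were examined without it, with the deposited scaling only. In wild-type motor neurons against cord, 12 of 105 kinesin probe sets were then higher and 35 lower. Of 36 dynein-dynactin probe sets 13 were higher and 13 lower, and of all 45037 probe sets 6647 and 13771. Mitotic kinesins had 3 higher and 2 lower of 24, against 1 and 0 of 7 with the filter. Only falls are named below. Dctn4 1450030_at did not reach background on any wild-type motor neuron array and was at least 8.78-fold lower there than in cord (limma without the filter, adjusted p = 2.18e-05). The same held for Kif5b 1453524_at (at least 5.0-fold, adjusted p = 0.000478), Kif1c 1426325_at (at least 4.83-fold, adjusted p = 0.000117), Kif13b 1453276_at (at least 3.16-fold, adjusted p = 0.0064) and Kif1c 1424747_at (at least 2.94-fold, adjusted p = 0.000281). The other scalings were run with the filter and give no value for these probe sets.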
